A study of Mus musculus with 2 samples.

Results

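The genes described here are the nuclear genes for the mitochondrial respiratory chain and ATP synthase, measured in TCRαβ+CD8αα+ intraepithelial lymphocytes (IELs) of the mouse small intestine. They were chosen by symbol: Nduf genes of the a, b, c, s and v series, Sdha to Sdhd, Uqcr genes, Cox4 to Cox8 genes, Atp5 genes, Cyc1 and Cycs. The rule found 95 of the 20887 named genes on the arrays, read by 128 probes. It also took in 8 Ndufaf genes, which encode assembly factors of complex I rather than subunits. Medians and counts for all members include these 8, and they are also described apart from the other 87.

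Both groups were C57BL/6 mice of 8 to 12 weeks, male and female pooled, and RNA of several isolations was combined for each genotype. The control was labelled Rbpjf/f, with loxP-flanked Rbpj alleles and no Cre named in the label, whereas the study describes its controls as Rbpj+/+ mice that also carried CD4-Cre. The other group, labelled RFF4, carried the same floxed alleles with CD4-Cre, which is driven by Cd4 regulatory sequence and therefore acts in T cells that have passed through a Cd4-expressing stage. Cells were freed with EDTA, enriched on Percoll and sorted as negative for CD4, TCRγδ and CD8β. Each genotype had 1 single-color array, so no difference below has a replicate check and none was tested. All levels and differences are on the log2 scale, relative to the 75th percentile of each array's gene probes, and a difference is the array labelled RFF4 minus the control array.

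Complexes I, III and IV pass electrons from NADH to oxygen and pump protons out of the mitochondrial matrix, complex II feeds in electrons from succinate, and cytochrome c carries electrons from complex III to complex IV. Complex V, the ATP synthase, lets the protons back in and makes ATP. Most subunits are encoded in the nucleus and imported. A minority, including the proton-pumping core of complex I and the catalytic core of complex IV, is encoded by mitochondrial DNA, and none of these 13 genes was matched to a named probe here. T cells are known to raise respiration when they are activated and when they form memory.

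Of 59305 gene spots, 57.2% were well above background on the control array and 49.7% on the array labelled RFF4, and none was saturated. Rbpj, the DNA-binding partner of Notch and the targeted gene, was not lower on the array labelled RFF4. Its brighter probe read 2.17 on the control array and 2.48 on the other, and its dimmer probe read -1.23 and -0.42, and whether either lies in the floxed part was not known here. Of 10 listed αβ T cell markers 9 were measured, with a median difference of 0.27, which became -0.25 with quantile normalization, and a range from -0.47 (Ptprc) to 2.21 (Cd2). With the reported scaling all 18 measured intestinal epithelial markers of 19 listed were higher on the array labelled RFF4, with a median difference of 1.56. Their median level was 3.43 on the control array and 4.95 on the other, and none was below background on either array. For macrophage and dendritic cell markers, 11 of 12 were measured, with a median difference of 2.41 and median levels of -2.90 and -0.91. C1qa and C1qc were above background only on the array labelled RFF4. With spike-in control RNAs set equal on the 2 arrays the αβ T cell, epithelial and macrophage medians became -0.82, 0.46 and 1.32. With normexp background correction the macrophage median was 1.34. Of 6 B and plasma cell markers 4 were measured, with a median difference of 1.34. The part of these other cells in the differences below was not tested, and in such bulk RNA fewer cells of a type and less RNA per cell cannot be told apart.

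Both arrays measured 91 of the 95 genes well above background, and neither measured the remaining 4. Those 4 were Ndufa4l2, Cox7b2, Cox8b and Cox8c, with levels between -7.26 and -4.17. The 91 measured genes had a median difference of 0.49 (interquartile range 0.33 to 0.59), against -0.03 (-0.39 to 0.43) for all 13519 genes with a difference. That median became -0.61 when the spike-in control RNAs were set equal on the 2 arrays, a scaling that moved every gene by -1.09, so the direction in absolute terms depended on the scaling. Relative to other genes, 88 of 91 lay above the all-gene median with the reported scaling, a count that a shift common to all genes cannot alter. Settings that can reorder genes gave 81 of 91 with quantile normalization and with normexp background correction, 87 of 91 with cyclic loess, and 79 of 95 with no filter on dim probes. Across all settings tried, the distance between the 2 medians ran from 0.25 to 0.51.

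The members' differences lay close together. As many as 71 of the 91 differences (78.0%) lay between 0.25 and 0.75, where 16.5% of all genes lay. The standard deviation among the members was 0.26, against 0.79 among all genes, but mitochondrial import genes (0.21) and citric acid cycle genes (0.26) lay as close together. A difference of more than 1.5-fold higher was seen for 24 members (26.4%), against 19.8% of all genes, and the members' share was therefore not far from the background. That comparison turned with the processing: the members past 1.5-fold higher were 5 with normexp, 6 with cyclic loess, 6 when arrays were scaled to their medians, 8 with quantile normalization and 0 with spike-in controls set equal, each a smaller share than that of all genes. With the reported scaling none was more than 1.5-fold lower, against 15.5% of all genes. With spike-in controls set equal 56 members were (61.5%), against 76.6% of all genes. Only Cox7a1 and Cox6a2 were more than 2-fold higher with the reported scaling, against 12.1% of all genes, and no member was more than 2-fold lower, against 5.21%. For scale, 262 probes printed 10 times gave a technical standard deviation of 0.14 for a difference, which measures the spots of 1 hybridisation and not the animals. With the reported scaling 82 of the 91 members differed by more than that, in either direction, and 77 by more than their scanner error. The quartiles of all genes, -0.39 and 0.43, also lay beyond 0.14 on either side. Passing that line was therefore common among all genes, whose share was not counted.

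**Figure D1:**
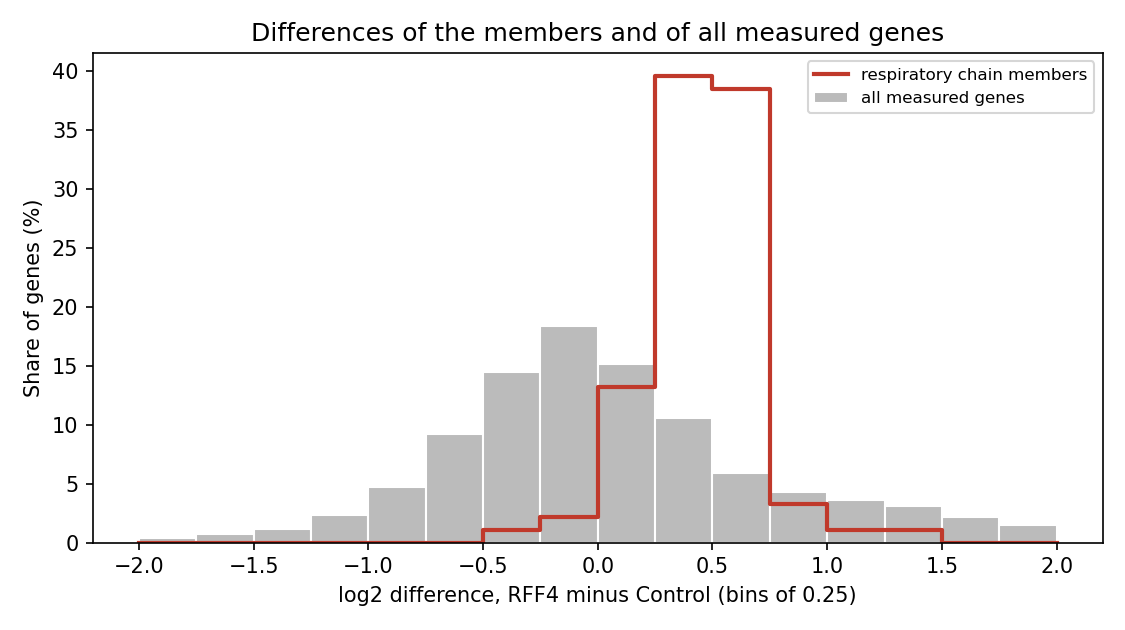
Share of genes (%) in bins of 0.25 of the log2 difference, RFF4 minus Control, for the 91 measured respiratory chain genes (red line) and all 13519 measured genes (grey bars). The members stand in a narrow peak between 0.25 and 0.75 (78.0% of them), while all genes spread to both sides of 0; with spike-in controls set equal both distributions move left by 1.09 and the member median is -0.61.

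Where several probes read 1 gene they mostly gave close values. For 24 genes with more than 1 usable probe the median spread between the highest and lowest difference was 0.10, and 18 of the 24 spreads were under the technical standard deviation. The 3 probes of Cox7a2l gave 0.27 to 0.30 and the 5 probes of Atp5l 0.43 to 0.53. The widest spread was that of Ndufv3, at 0.49, where the brighter probe gave 0.50 and the other 0.01. Ndufaf4 was the 1 gene whose probes had opposite signs, at -0.12 and 0.20.

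Promoter sequences were taken from RefSeq (build GRCm38.p6, 250 bases before to 50 after the start of transcription) to show which letters of known regulators the members share. The table held 82 promoters for 77 of the 95 genes and 21263 promoters of protein-coding genes in all. Both strands were searched for 11 strings, some of which are shorter spellings of others and overlap them. GCGCATGC, the core bound by NRF1, which drives many respiratory chain genes, was found in 15.9% of member promoters and 3.52% of all promoters. CCGGAAG, bound by ETS factors such as GABPA, was found in 23.2% against 11.6%, and AAGATGGC, bound by YY1, in 13.4% against 3.05%. AAGGTCA, bound by ESRRA, was found in 9.76% against 4.08%. TGGGAA, the core that RBPJ binds, was found in 19.5% of member promoters and 24.5% of all promoters. Such matches are letters in a window and not binding sites.

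The 4 promoters below are shown because they cover a ubiquitous subunit, the complex III member with the largest difference, a tissue-restricted isoform and an assembly factor. Each is written 5′ to 3′ on the gene's strand, and capitals mark GCGCATGC, CCGGAAG, AAGATGGC or TGGGAA on either strand. Cox6a1 lies at chr5:115348909-115349208 on the minus strand, Uqcr11 at chr10:80406772-80407071 on the minus strand, Cox7a1 at chr7:30183921-30184220 on the plus strand and Ndufaf4 at chr4:24897833-24898132 on the plus strand.
Cox6a1: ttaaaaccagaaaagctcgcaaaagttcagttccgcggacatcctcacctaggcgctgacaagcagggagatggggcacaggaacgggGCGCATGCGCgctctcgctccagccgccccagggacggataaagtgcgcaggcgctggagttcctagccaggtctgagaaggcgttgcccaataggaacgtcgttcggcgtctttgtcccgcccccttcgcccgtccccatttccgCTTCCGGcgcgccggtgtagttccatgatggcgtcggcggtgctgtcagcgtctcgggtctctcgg
Uqcr11: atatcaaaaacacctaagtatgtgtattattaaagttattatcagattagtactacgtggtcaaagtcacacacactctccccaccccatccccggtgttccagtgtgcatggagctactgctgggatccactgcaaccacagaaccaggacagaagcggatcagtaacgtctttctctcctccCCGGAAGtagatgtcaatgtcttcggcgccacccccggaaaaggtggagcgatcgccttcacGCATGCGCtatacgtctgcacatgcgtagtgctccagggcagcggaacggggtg
Cox7a1: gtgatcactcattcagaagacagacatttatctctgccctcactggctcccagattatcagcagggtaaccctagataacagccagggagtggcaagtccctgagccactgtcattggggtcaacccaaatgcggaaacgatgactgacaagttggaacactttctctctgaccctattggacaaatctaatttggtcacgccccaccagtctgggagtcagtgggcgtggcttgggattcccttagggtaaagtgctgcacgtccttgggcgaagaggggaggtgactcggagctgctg
Ndufaf4: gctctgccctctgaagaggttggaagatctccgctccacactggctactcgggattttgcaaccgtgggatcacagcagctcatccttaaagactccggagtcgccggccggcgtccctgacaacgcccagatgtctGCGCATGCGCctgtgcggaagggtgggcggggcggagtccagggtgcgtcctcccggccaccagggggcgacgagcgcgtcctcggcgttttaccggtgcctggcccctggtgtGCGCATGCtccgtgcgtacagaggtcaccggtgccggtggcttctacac
The Cox6a1 promoter held the NRF1 string 2 times, on opposite strands of 1 run, and the ETS string 1 time. Uqcr11 held 1 of each and Ndufaf4 held the NRF1 string 3 times, while none of the 4 strings was in the Cox7a1 window. The 13 members with the NRF1 string had a median difference of 0.51 and the 62 without it 0.47. With the ETS string the medians were 0.49 and 0.48, with the YY1 string 0.46 and 0.49, and with the RBPJ string 0.55 and 0.44. None of these differences was tested.

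Complex I, the NADH dehydrogenase, was measured for all 36 of its nuclear subunits named by the rule. Their median difference was 0.45, with 35 of 36 above the all-gene median and a range from -0.10 to 0.92. More than 1.5-fold higher were 7, a share of 19.4% that was near the background of 19.8%. With median scaling and with normexp only Ndufab1 passed (2.78%, against 16.5% and 21.3% of all genes). The catalytic core subunits, the conserved part that takes electrons from NADH to the quinone, had a median of 0.39. Among them Ndufs1, the largest iron-sulfur subunit, read 4.64 on the control array and 4.54 on the other, a difference of -0.10 that was under the technical standard deviation. Ndufv2, an iron-sulfur subunit of the NADH-binding arm, read 4.40 and 5.04, the largest core difference at 0.64. Between these lay Ndufs8 at 0.29, Ndufs3 at 0.38, Ndufs7 at 0.39 and Ndufv1 at 0.41.

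The 29 accessory subunits of complex I, which surround the core, had a median difference of 0.47 and a range of 0.17 to 0.92. Ndufab1, the mitochondrial acyl carrier protein, read 0.27 on the control array and 1.19 on the array labelled RFF4. Its difference of 0.92 was the largest of the complex. Ndufc1 read 4.73 and 5.45, Ndufb9 5.50 and 6.20, and Ndufb7 6.21 and 6.90. Both Ndufb10 (6.16 and 6.79) and Ndufs6 (6.31 and 6.91) also passed 1.5-fold, narrowly. At the low end of the accessory subunits stood Ndufa6 at 0.17 and Ndufa10 at 0.18. Ndufa13, also known as Grim19, differed by 0.56, from 7.92 to 8.48.

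The 8 Ndufaf genes, whose products help to build complex I and are not part of it, lay near the all-gene median. Their median difference was 0.02, beside 0.50 for the 83 other measured members. With the reported scaling none passed 1.5-fold, against 19.8% of all genes higher and 15.5% lower. With spike-in controls set equal they ran from -1.52 to -0.92, all more than 1.5-fold lower, against 76.6% of all genes. They were also dim: control levels ran from -0.16 to 2.90, whereas every complex I subunit but Ndufab1 read at least 3.25. The part of signal level in the contrast was not tested. Ndufaf6 was the lowest of all 91 members at -0.43, with levels of 0.63 and 0.20. Ndufaf4 (1.94 and 1.82) was also lower on the array labelled RFF4, although its other probe was not. Ndufaf2, Ndufaf1 and Ndufaf7 differed by 0.01 to 0.02, Ndufaf8 by 0.09, Ndufaf5 by 0.13 and Ndufaf3 by 0.18. The distance between the 2 medians, 0.48 here, was 0.20 under quantile normalization and under cyclic loess and 0.45 to 0.48 under the other settings. The gap was not tested.

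**Figure D2:**
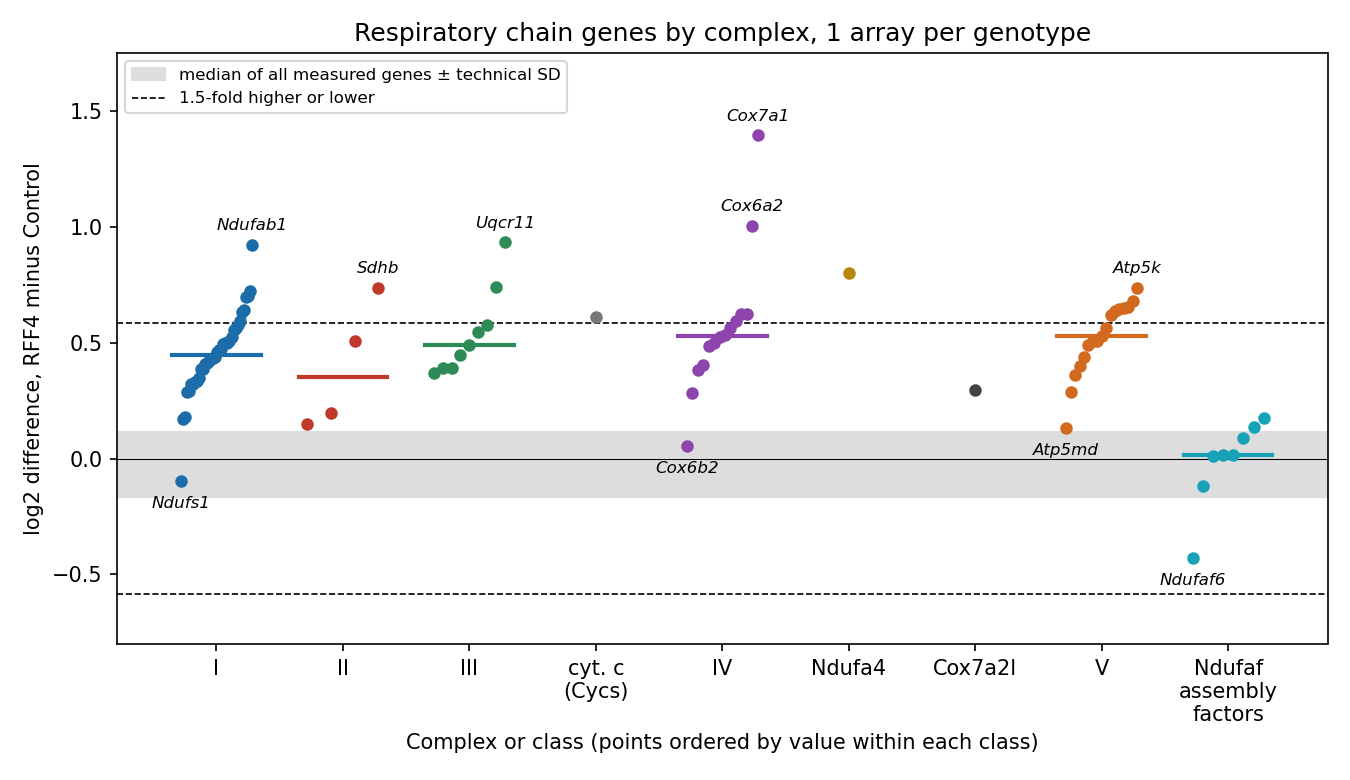
Log2 difference (RFF4 minus Control) of each measured member, grouped by complex or class on the horizontal axis, with 1 array per genotype; bars are class medians, the grey band is the all-gene median ± the technical SD of 0.14, and dashed lines mark 1.5-fold. The medians of complexes I to V lie between 0.35 and 0.53 and that of the Ndufaf assembly factors at 0.02; with spike-in controls set equal every point moves down by 1.09 and the medians of the 5 complexes lie between -0.74 and -0.57.

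Complex II, succinate dehydrogenase, which also serves the citric acid cycle, had the lowest median of the 5 complexes at 0.35, from only 4 genes. Sdha, the flavoprotein, read 4.95 and 5.10, and Sdhd, a membrane anchor, read 5.17 and 5.37, differences of 0.15 and 0.20. Sdhb, the iron-sulfur subunit, read 5.85 and 6.58, and Sdhc, the other anchor, 4.17 and 4.68, differences of 0.74 and 0.51.

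Complex III, the cytochrome bc1 complex, was measured for all 9 genes, which with the reported scaling all lay above the all-gene median, with a median difference of 0.49. Its redox subunits Cyc1, cytochrome c1, and Uqcrfs1, the Rieske iron-sulfur protein, read 5.30 and 5.88, and 4.75 and 5.12. The core proteins Uqcrc1 and Uqcrc2 differed by 0.49 and 0.39. The Uqcrc2 value rested on a probe printed 10 times, whose spots varied by a standard deviation of 0.027 on the control array and 0.024 on the other. The largest values were those of the small subunits Uqcr11 and Uqcrq. Uqcr11 read 5.40 and 6.33, a difference of 0.93, and Uqcrq 6.50 and 7.24, a difference of 0.74. Uqcr10 differed by 0.55, Uqcrb by 0.45 and Uqcrh by 0.39. Cycs, cytochrome c itself, read 4.93 and 5.54, a difference of 0.61.

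Complex IV, cytochrome c oxidase, had a median difference of 0.53 over 14 measured genes of 17, and 5 were more than 1.5-fold higher (35.7%, against 19.8% of all genes). Only Cox7a1 and Cox6a2 still passed (14.3%) with median scaling, quantile normalization, cyclic loess or normexp, a share below that of all genes in each case. It is the complex with tissue-restricted isoforms, and these set its spread. The 10 genes without that restriction had a median of 0.53, a standard deviation of 0.10 and a range of 0.28 to 0.62, but with quantile normalization their standard deviation was 0.20 and their range -0.12 to 0.53. Cox6a1 read 8.62 and 9.21, Cox4i1 7.31 and 7.87, and Cox7a2 5.36 and 5.86. Cox5a and Cox7b stood highest of the 10 at 0.62 each and Cox5b lowest at 0.28.

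Of the 7 isoforms known from muscle, heart, lung, testis or other specialised tissue, 4 were measured. Cox7a1, the heart and muscle isoform, read 2.23 on the control array and 3.62 on the array labelled RFF4, 2.63-fold higher and the largest difference of all members. Cox6a2, also a heart and muscle isoform, read -1.44 and -0.43, just past 2-fold higher at a low level. Their ubiquitous partners differed less, by 0.90 for Cox7a2 against Cox7a1 and by 0.41 for Cox6a1 against Cox6a2. Cox4i2, known from lung, read -1.94 and -1.56, and Cox6b2, known from testis, read -1.58 and -1.52, and with the reported scaling these differed less than Cox4i1 and Cox6b1 did, by 0.18 and 0.47. That order depended on the processing: 2 of the 4 isoforms differed by more than their partners with the reported scaling, 3 with quantile normalization and with cyclic loess, where Cox4i2 exceeded Cox4i1, and 4 with normexp, where Cox6b2 and Cox6b1 both stood at 0.29. Ndufa4, first assigned to complex I and now counted with complex IV, read 4.49 and 5.29, a difference of 0.80. Cox7a2l, a factor of respiratory supercomplexes, differed by 0.30.

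Complex V, the ATP synthase, had a median difference of 0.53 over all 17 genes, each above the all-gene median with the reported scaling, and 7 passed 1.5-fold higher (41.2%, against 19.8% of all genes). Of those 17 genes, 1 passed with quantile normalization and none with cyclic loess, normexp, scaling to the median or the spike-in scaling. In the catalytic head the 5 subunits had a median of 0.49. Its large subunits Atp5a1 (alpha) and Atp5b (beta) read 6.60 and 6.97, and 7.59 and 8.08, while Atp5c1 (gamma) read 6.34 and 6.98. Atp5d (delta) differed by 0.40 and Atp5e (epsilon) by 0.64. The 12 subunits outside the head had a median of 0.55.

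The 3 genes that encode the same c ring protein differed by similar amounts, Atp5g1 by 0.65, Atp5g2 by 0.62 and Atp5g3 by 0.53. In the peripheral stalk Atp5o read 4.45 and 5.10, a difference of 0.65, and Atp5pb had 0.29. Among the other membrane subunits Atp5k read 5.71 and 6.44, and Atp5j2 read 6.72 and 7.40. Atp5md, a small subunit, was lowest of the complex, at 6.28 and 6.41. The order of the 5 complexes by median, from II at 0.35 through I and III to IV and V at 0.53, spanned 0.18. Under quantile normalization the order was another, with complex V lowest at 0.19 and complex III highest at 0.32. Whether the complexes differed was not tested.

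**Figure D3:**
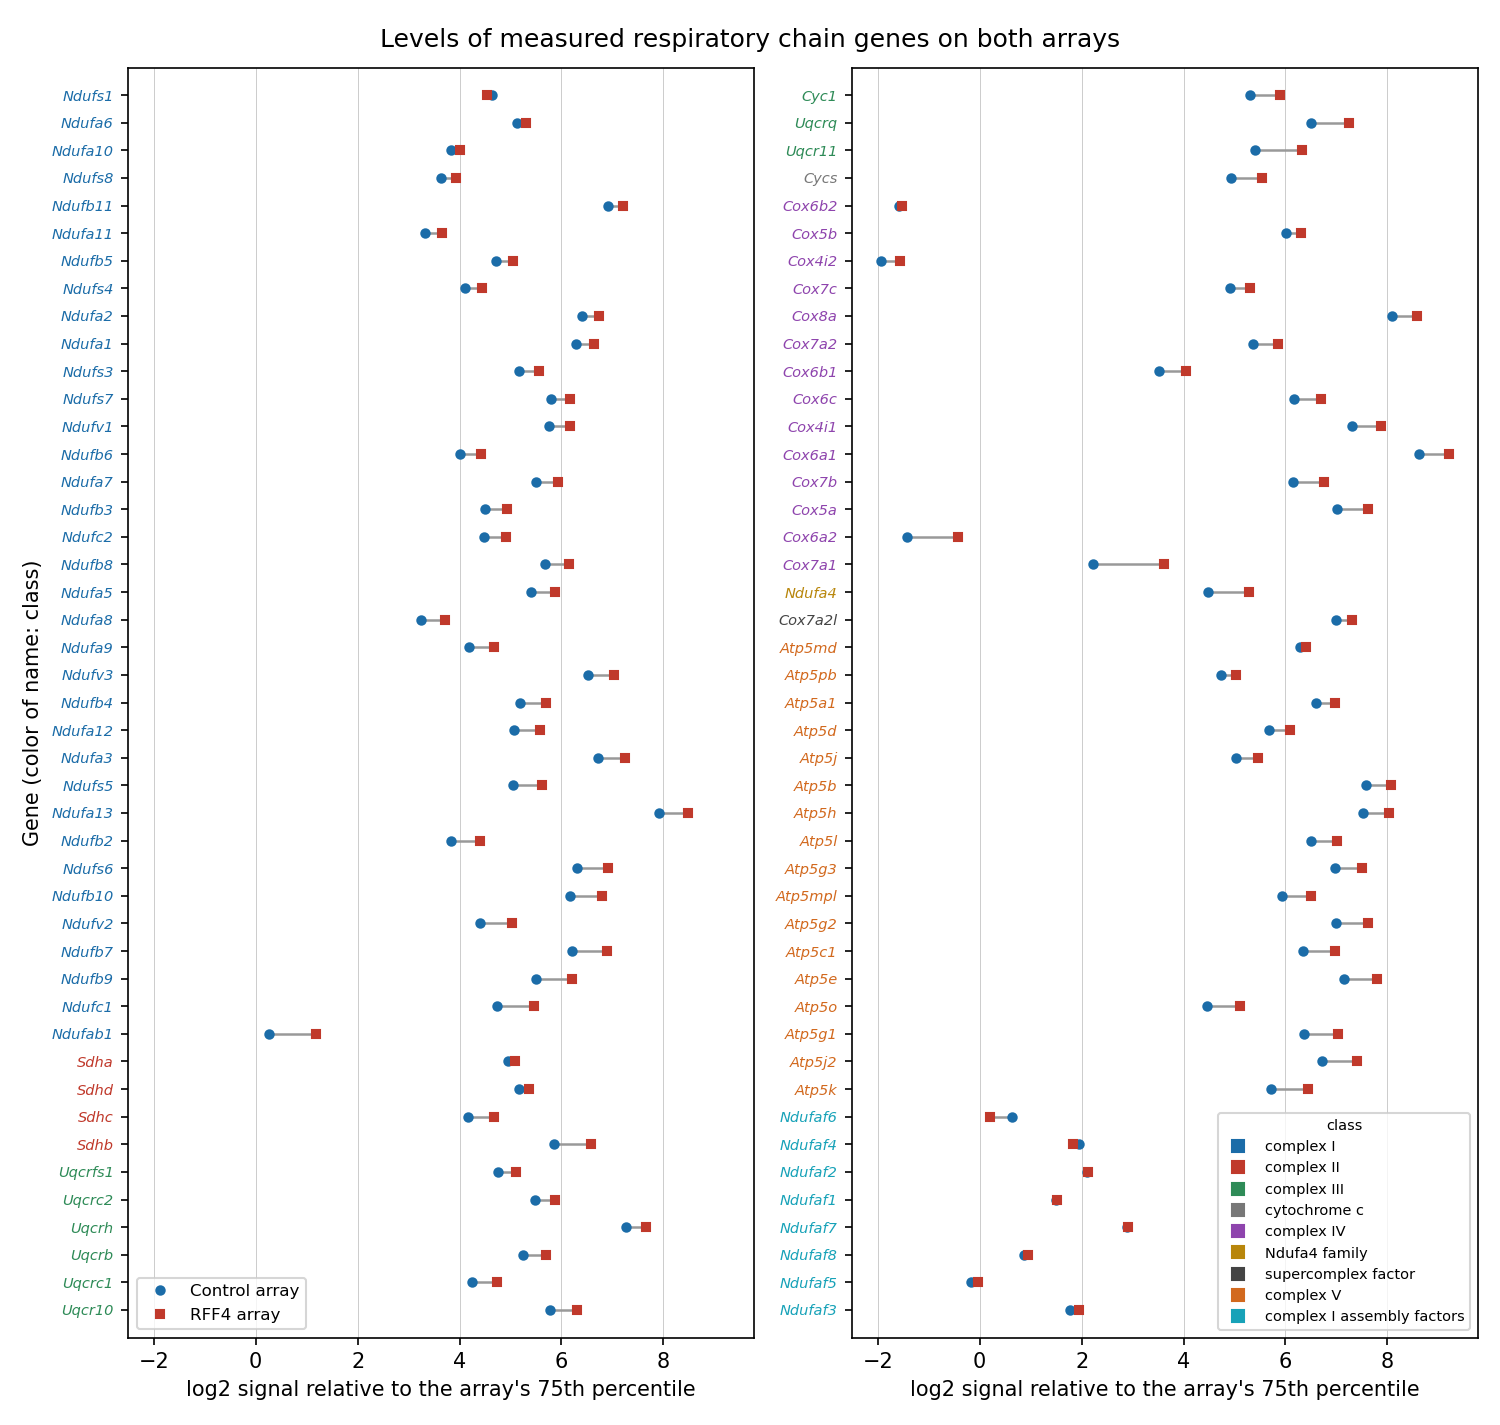
Levels of measured members on the control array (blue circles) and the array labelled RFF4 (red squares), as log2 signal relative to the array's 75th percentile, ordered by difference within each class. With this scaling the red square lies to the left for Ndufs1, Ndufaf4 and Ndufaf6 and to the right for the other genes shown; setting spike-in controls equal moves every red square left by 1.09, and only Cox7a1 then stays to the right.

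Other mitochondrial lists were set beside the members with the same scaling. The 37 measured assembly factors of 41 listed, outside the Ndufaf series, had a median of 0.15, with 4 more than 1.5-fold higher (10.8%) and 1 lower (2.70%), both smaller shares than the 19.8% and 15.5% of all genes. The 4 were Timmdc1 at 1.43, Cox17, a copper chaperone of complex IV, with levels of -4.03 and -2.92, Taco1 at 0.63 and Coa3 at 0.61, and the lower one was Cox10, which makes heme O, at -0.74. The 18 genes of the citric acid cycle had a median of 0.20, with 1 higher (Mdh2, malate dehydrogenase, 0.72) and none lower. The 21 mitochondrial import genes had a median of 0.19, with 1 higher (Timm8a1, 0.65) and none lower. These medians lay between those of all genes and of the respiratory chain members, at -0.03 and 0.49. With normexp background correction the citric acid cycle, import and assembly factor lists came to -0.03, 0.01 and -0.04. The members then stood at 0.26 and all genes at -0.04. With quantile normalization the 3 lists came to 0.15, 0.17 and 0.12, beside 0.26 for the members and -0.05 for all genes. Cyclic loess gave 0.13, 0.18 and 0.14, beside 0.30 and -0.01, so the distance to the members depended on the processing.

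The 17 regulators of mitochondrial DNA and biogenesis went the other way relative to all genes, with a median of -0.32 and 5 of 17 above the all-gene median. More than 1.5-fold lower were 4 (23.5%, against 15.5% of all genes): the mitochondrial transcription factor Tfb2m (-0.77), the GABP subunit Gabpb1 (-0.73), the mitochondrial DNA helicase Twnk (-0.73) and the coactivator Pprc1 (-0.68). Pprc1 was above background only on the control array, so its difference rests on a level not above background on the other. Nrf1 differed by -0.40, Tfam, which packages and transcribes mitochondrial DNA, by -0.30, Gabpa by -0.27 and Yy1 by -0.32. Esrra differed by 0.20. Ppargc1a, the coactivator PGC-1α, had the largest difference of the list in the other direction, at -2.49 on the control array and -0.83 on the other, a difference of 1.66 at a low level. The median stayed below that of all genes under every setting tried.

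**Figure D4:**
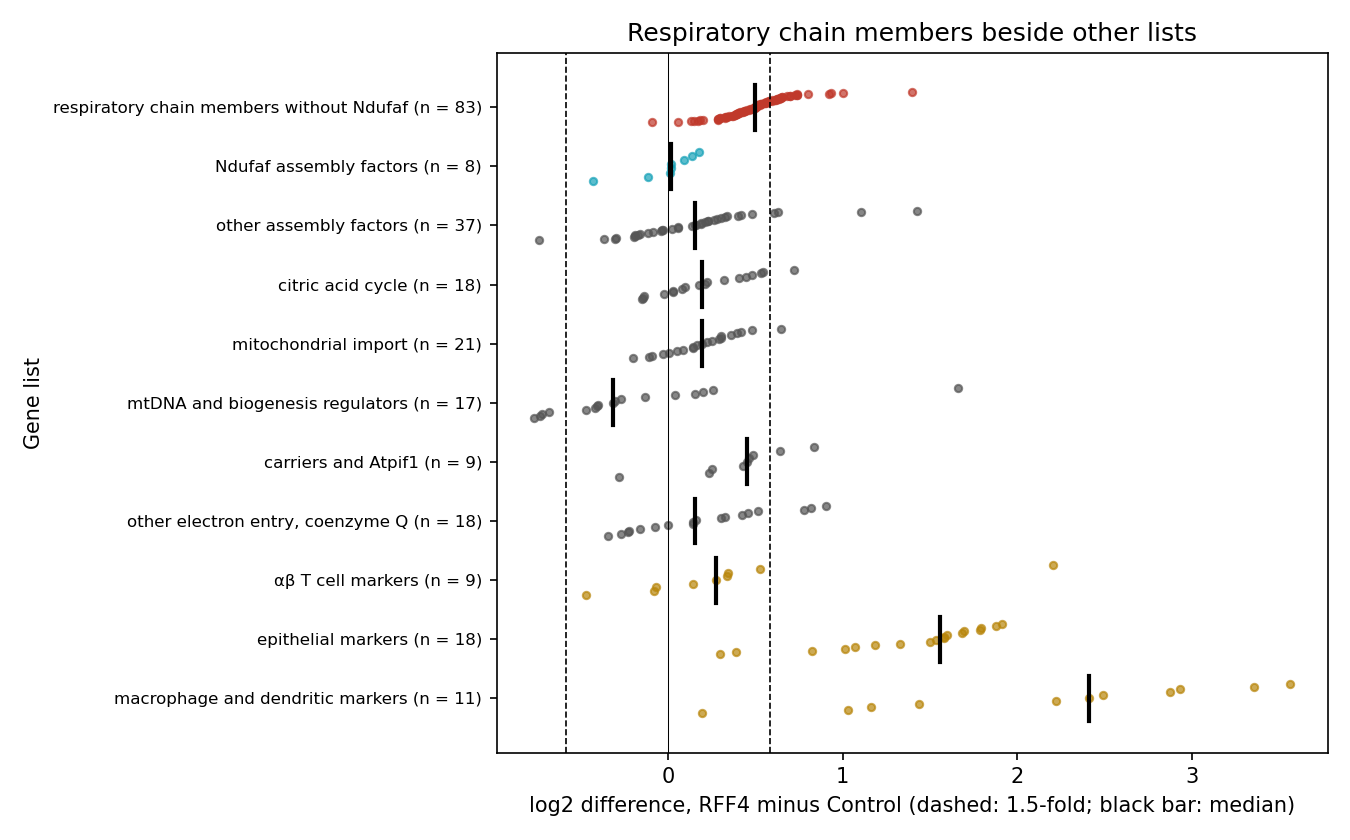
Log2 difference (RFF4 minus Control) of each measured gene in the respiratory chain set, other mitochondrial lists and cell type markers; black bars are medians and dashed lines mark 1.5-fold. The subunits center on 0.50, the regulators on -0.32 and the epithelial and macrophage markers on 1.56 and 2.41; with spike-in controls set equal all points move left by 1.09 and the subunit median falls below 0.

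**Figure D5:**
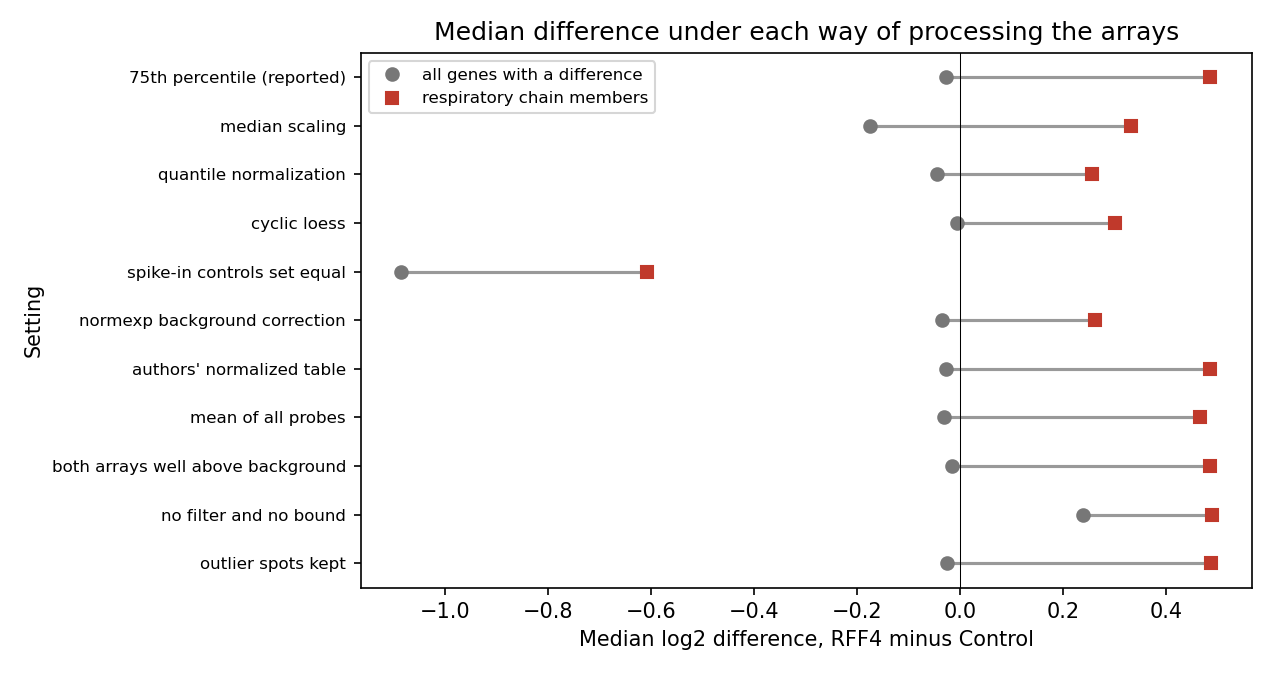
Median log2 difference (RFF4 minus Control) of all genes with a difference (grey circles) and of the respiratory chain members (red squares) under the reported scaling and each alternative. The member median lies to the right of the all-gene median in every line, by 0.25 to 0.51, but falls to -0.61 with spike-in controls set equal.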

How the data were processed

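RNA of sorted TCRαβ+CD8αα+ IELs (150 ng per genotype, Cy3) was hybridised to SurePrint G3 Mouse GE 8x60K arrays, both on 1 slide. The deposited scanner files hold intensity values per spot from Agilent Feature Extraction 10.7.1.1, per the submitters' processing notes; the processed signal is background-subtracted. The authors' normalized table, made with GeneSpring, was found to hold log2 values centered per probe on the 2 arrays (column medians -0.20 and 0.20), and its differences matched those computed here (median gap -0.0001); its settings are not given in the sources used here.

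Control spots and outlier spots were left out, the log2 processed signal was set relative to each array's 75th percentile, and the probe with the highest mean signal stood for a gene. Probe names were resolved by accession through RefSeq tables. A gene below background on 1 array got a bound where its level there lay under the lowest level called above background on that array. With 1 array per genotype no test was run. The number of arrays limits the precision. Any member may be named, except 1 that is not reported here; a gene of another list is named if past 1.5-fold or if it is a cell marker or regulator. Members and lists were chosen with earlier results of these data known. Alternatives were median scaling, quantile normalization, cyclic loess, spike-in scaling, normexp (offset 50), the table normalized by the authors, a mean over a gene's probes, stricter and no filters on dim probes, and outlier spots kept. The steps were run on a simulated pair of arrays that differed by a constant shift, random noise and set changes. That pair could not test the choice of scaling. Python 3.11.15, numpy 2.4.6, pandas 2.3.3, matplotlib 3.10.9, R 4.3.3 and limma 3.58.1 were used.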

Additional observations from a re-analysis of the deposited data

How the results depend on the processing

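The position of the members above the all-gene median held under all 10 alternatives, whereas absolute medians and counts past 1.5-fold moved. With median scaling the median difference was 0.33 for all members and 0.30, 0.20, 0.34, 0.37 and 0.38 for complexes I to V, with 6 members more than 1.5-fold higher (16.5% of all genes). Quantile normalization gave 0.26 for all members, 0.30 for complex I, 0.32 for complex III, 0.26 for complex IV and 0.19 for complex V, with 8 higher (18.3% of all genes). Cyclic loess gave 0.30 for all members, 0.32 for complex IV and 0.31 for complex V, with 6 higher (19.6% of all genes). Normexp gave 0.26 for all members and 0.22, 0.12, 0.28, 0.32 and 0.32 for complexes I to V, with 5 higher (21.3% of all genes). The members' share past 1.5-fold higher was below that of all genes under these 4 settings, under the spike-in scaling (0 against 3.62%) and with no filter on dim probes (28.4% against 38.3%), and above it under the other 4 alternatives. Cox7a1, Cox6a2, Ndufab1, Uqcr11 and Ndufa4 passed 1.5-fold under every setting except the spike-in scaling. The cause of these movements was not tested.

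With spike-in controls set equal the medians reversed, to -0.61 for all members and -0.65, -0.74, -0.60, -0.57 and -0.57 for complexes I to V, with 0 members more than 1.5-fold higher and 56 lower (61.5%, against 76.6% of all genes). That scaling shifts all genes by -1.09, so any member with a difference between 0 and 1.09 changes sign by construction. Among the 24 past 1.5-fold these were 23: Atp5c1 -0.46, Atp5e -0.45, Atp5g1 -0.44, Atp5g2 -0.48, Atp5j2 -0.42, Atp5k -0.36, Atp5o -0.44, Cox5a -0.47, Cox6a1 -0.50, Cox6a2 -0.091, Cox7b -0.47, Cycs -0.48, Ndufa4 -0.29, Ndufab1 -0.17, Ndufb10 -0.46, Ndufb7 -0.40, Ndufb9 -0.39, Ndufc1 -0.37, Ndufs6 -0.50, Ndufv2 -0.45, Sdhb -0.36, Uqcr11 -0.16 and Uqcrq -0.35. The authors' normalized table, the filter for both arrays, no filter and outlier spots kept moved none of the 91 single values by more than the technical standard deviation, and the mean of all probes moved 2.

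No paired analysis was possible because each genotype had 1 array, and no array was left out for the same reason. Low signal limited 4 members, which were well above background on neither array.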

Other observations

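Other genes around the respiratory chain were listed but not described above. Of 10 carriers, uncouplers and inhibitors, 9 were measured, with a median log2 difference of 0.45, close to that of the subunits, and 8 of 9 above the all-gene median. More than 1.5-fold higher were 2 (22.2%, against 19.8% of all genes). Atpif1, the inhibitor of ATP synthase, read 6.06 on the control array and 6.89 on the array labelled RFF4, a difference of 0.84. Vdac1, the outer membrane channel, differed by 0.64, and Ucp1 was below background on both arrays. With spike-in controls set equal the list's median was -0.64. It was 0.39 with quantile normalization and 0.34 with cyclic loess, above the members' 0.26 and 0.30.

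Of 19 genes for other electron entry and for coenzyme Q, 18 were measured, with a median of 0.15. Higher by more than 1.5-fold were 3 (16.7%, below the 19.8% of all genes) and none was lower. They were Pdss1, which makes the coenzyme Q tail, at 0.90, Coq4 of the coenzyme Q synthesis complex at 0.82, and Sqor, which passes electrons from sulfide to coenzyme Q, at 0.78. With spike-in controls set equal that median was -0.94. The cell marker levels given for the 2 arrays apply here too, and their part in these values was not tested.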
